A study of Mus musculus with 40 samples.

Results

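The 35 genes described here are hypoxia response genes outside glycolysis. They were taken by symbol from a list, and all 35 were found among the 51789 Ensembl genes counted in 40 QuantSeq 3′ mRNA libraries of cultured mouse melanoma cells. The list holds 6 secreted or peptide-processing factors, 5 genes of mitophagy and mitochondria, 4 of pH and the membrane, 3 demethylases or hydroxylases, 4 of metabolism, 8 of signalling, growth and feedback, and 5 others.

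Cells answer low oxygen mainly through the hypoxia-inducible factors, in which an oxygen-sensitive alpha subunit such as Hif1α pairs with Arnt. When oxygen is plentiful, prolyl hydroxylases of the Egln family mark the alpha subunit for Vhl, which leads to its destruction. When oxygen is short, the pair binds short DNA elements with the core ACGTG or GCGTG and raises genes for blood vessel growth, mitochondrial turnover, pH control and feedback, besides those of glycolysis. Bmal1, listed as Arntl, is a related protein of the bHLH-PAS family that pairs with Clock in the circadian oscillator and binds E-boxes with the letters CACGTG.

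The libraries form 20 groups of 2. B16-F10 is an established mouse melanoma line, and a Ctrl clone was set beside a clone labelled Bmal1 KO, 1 clone each. YUMM2.1 and YUMM1.7 are mouse melanoma lines that carry Braf V600E. YUMM2.1 also has 1 lost Cdkn2a allele and a stabilised β-catenin allele, and YUMM1.7 lacks Cdkn2a. The cells labelled aC3 are 1 Bmal1-null CRISPR clone of YUMM2.1. aC3, YUMM2.1 and YUMM1.7 cells each carry an empty vector (EV), wild-type Bmal1 (WT-Bmal1) or dHLH-Bmal1, a form that lacks DNA-binding activity. The aC3 and YUMM2.1 cells received these by lentivirus and were sorted for GFP, and how the YUMM1.7 cells were made is not given in the sources used here. YUMM2.1 cells with each construct were in addition given a control hairpin (shNC) or a hairpin against Myh9, the heavy chain of nonmuscle myosin IIA (shMyh9#2 or shMyh9#4). The cell lines were maintained in medium with serum in a standard incubator. The oxygen level of the sequenced cells is not stated in the sources used here, and some of the lines were held at low oxygen for other assays. The labels do not say whether the paired libraries of a group came from separate cultures, and p-values measure only the spread between them.

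Levels are in CPM, the counts of a gene per 1000000 of its library's total after TMM scaling over all libraries, with the value of each of the 2 libraries. QuantSeq reads the 3′ end of a transcript, so a CPM does not grow with transcript length. Differences are log2 fold changes ± SE from the quasi-likelihood test of edgeR, and a gene counts as called where its p, adjusted by Benjamini-Hochberg over all genes tested, is under 0.05. Shares of all genes are of genes called in this way. No such share was taken for counts at an unadjusted p. Library totals ran from 3643332 to 22970049 counts with a median of 10021164.5, so 1 CPM stands for few reads in the smallest libraries. In bulk RNA, fewer cells of a kind and less RNA per cell cannot be told apart.

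Some members sit where reads may be shared. By the GENCODE annotation of GRCm38, 16 of the 35 overlap a gene on the opposite strand and 3 overlap one on the same strand. In addition, 3 have copies elsewhere that carry the member's symbol with the ending ps. Copies under other names were not searched. The strand of counting is not given in the sources used here. The antisense partners of Fam162a (Wdr5b), Jmjd6 (Mettl23), Ankrd37 (Ufsp2 and Lrp2bp) and Ankzf1 (Atg9a and Glb1l) are themselves protein-coding genes. The copies found by name are those of Mif, Bnip3l and Btg1. Values of these genes are uncertain to that extent.

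The DNA just before the start of these genes is shown because the list is defined by a transcription factor response. RefSeq promoter sequences of GRCm38 were matched for 30 of the 35 members, and the 250 bases before the first listed start were searched on both strands for ACGTG and GCGTG, the letters of the core element, and for CACGTG, which contains ACGTG. The first core was in 12 of the 30 windows (40%) and in 16.6% of the windows of 27025 genes. GCGTG was in 20 windows (66.7%) against 28.2%, and CACGTG in 5 (16.7%) against 6.05%. Either core was in 23 windows (76.7%), against 38.6% of all genes. A match of letters is a description and not a bound site. Neither core was in the windows of Vegfa, Vldlr, Errfi1, Mxi1, Mif, Car12 and Pim1. Vegfa, Vldlr, Errfi1 and Mxi1 also bear on the results below. Matches on either strand are in capitals in what follows. Windows of 5 other members that the results turn on, each with a core, are printed 5′ to 3′ on the gene's strand. They are Bnip3 (chr7:138909507-138909756, minus strand), Adm (chr7:110627407-110627656, plus strand), Ak4 (chr4:101419039-101419288, plus strand), Car9 (chr4:43506776-43507025, plus strand) and Ankrd37 (chr8:45999851-46000100, minus strand, a start inside the longer GENCODE gene).
Bnip3: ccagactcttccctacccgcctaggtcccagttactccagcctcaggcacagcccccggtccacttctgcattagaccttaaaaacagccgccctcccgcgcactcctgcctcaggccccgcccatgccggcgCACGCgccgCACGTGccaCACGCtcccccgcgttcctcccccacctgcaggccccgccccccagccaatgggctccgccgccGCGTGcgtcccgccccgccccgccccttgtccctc
Adm: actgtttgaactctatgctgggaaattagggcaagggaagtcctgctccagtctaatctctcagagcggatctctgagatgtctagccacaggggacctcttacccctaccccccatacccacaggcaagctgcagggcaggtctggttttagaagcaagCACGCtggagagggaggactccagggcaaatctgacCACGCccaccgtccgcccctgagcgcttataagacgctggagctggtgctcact
Ak4: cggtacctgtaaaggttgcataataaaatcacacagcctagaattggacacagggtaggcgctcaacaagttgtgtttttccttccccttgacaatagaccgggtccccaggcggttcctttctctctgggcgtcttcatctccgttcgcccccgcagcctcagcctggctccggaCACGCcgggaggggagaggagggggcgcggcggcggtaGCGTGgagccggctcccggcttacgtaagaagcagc
Car9: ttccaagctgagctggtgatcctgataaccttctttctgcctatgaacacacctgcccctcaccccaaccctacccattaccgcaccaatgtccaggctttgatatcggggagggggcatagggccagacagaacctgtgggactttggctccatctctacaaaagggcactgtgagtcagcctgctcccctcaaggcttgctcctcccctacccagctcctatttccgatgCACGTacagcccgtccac
Ankrd37: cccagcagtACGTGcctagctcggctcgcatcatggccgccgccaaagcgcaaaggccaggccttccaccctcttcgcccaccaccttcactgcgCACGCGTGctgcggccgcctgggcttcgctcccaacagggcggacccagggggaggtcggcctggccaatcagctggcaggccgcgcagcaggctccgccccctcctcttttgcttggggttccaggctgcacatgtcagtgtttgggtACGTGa
The Bnip3 window holds 2 matches to ACGTG, 1 on each strand of its single CACGTG, and 3 to GCGTG. The windows of Adm and Ak4 each hold 2 matches to GCGTG and none to ACGTG. The Car9 window holds 1 match to ACGTG on the opposite strand, close to the start. The Ankrd37 window holds 2 matches to each core.

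Some facts of the libraries bear on what follows. In the normalised counts that the paper itself gives for YUMM2.1, matched by proportion within 1%, 2 libraries carry each other's names. They are those deposited as YUMM2.1 EV 2 and YUMM2.1 WT-Bmal1 1, and which naming is right is not known. The labels as deposited are used here, and values with these labels exchanged or without both libraries stand beside each result they touch. Arntl counts do not separate B16-F10 Ctrl (15.3 and 10.7 CPM) from Bmal1 KO (13.4 and 11.4 CPM), nor YUMM2.1 EV (16 and 14 CPM) from WT-Bmal1 (13.9 and 18.1 CPM). In aC3 they were lower with WT-Bmal1 (18.2 and 17.4 CPM) than with EV (32.8 and 30.3 CPM). A 3′ count does not check a small deletion, nor a vector transcript with another 3′ end, so the groups are named by their labels. Of the 7 melanocyte lineage markers, Dct, Tyrp1 and Mlana were at 0 and Tyr and Pmel near 0 in the YUMM and aC3 libraries but abundant in B16-F10, and Sox10 was near 0 in YUMM1.7. The summed epithelial markers stayed at or below 0.485 CPM and the leukocyte markers at or below 5.72 CPM in all groups, and the summed endothelial markers ran from 3.79 to 26.5 CPM.

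Across the groups, the members ran from abundant genes present everywhere to scarce ones, and some were at or near 0 in part of the groups. Mif, a cytokine, was the most abundant by CPM, with group means from 792 to 2091 CPM. Nampt, an enzyme of NAD synthesis, varied least, by 1.995 times between its highest and lowest group. Car9, a carbonic anhydrase of the cell surface, varied by 159.6 times, between 15.41 CPM in WT-Bmal1 shMyh9#2 cells and 0.09655 CPM in YUMM1.7 dHLH-Bmal1 cells. Stc1, a secreted stanniocalcin, varied by 49.52 times, and its extremes were both B16-F10 groups, 25.7 CPM in Ctrl and 0.519 CPM in Bmal1 KO. Bnip3, a receptor for mitophagy, was highest in YUMM2.1 dHLH-Bmal1 cells (487.4 CPM), and so were its relative Bnip3l (248.8 CPM) and the mitochondrial protein gene Fam162a (368.7 CPM). The lowest means of Bnip3 (73.31 CPM), Fam162a (90.08 CPM) and Higd1a (130.8 CPM), a factor of respiratory chain complexes, were in YUMM1.7 dHLH-Bmal1 cells. Ppfia4 was below 1 CPM in all 20 groups (highest mean 0.9002 CPM) and passed the filter on low counts in none of the 14 comparisons made within a line.

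**Figure D1:**
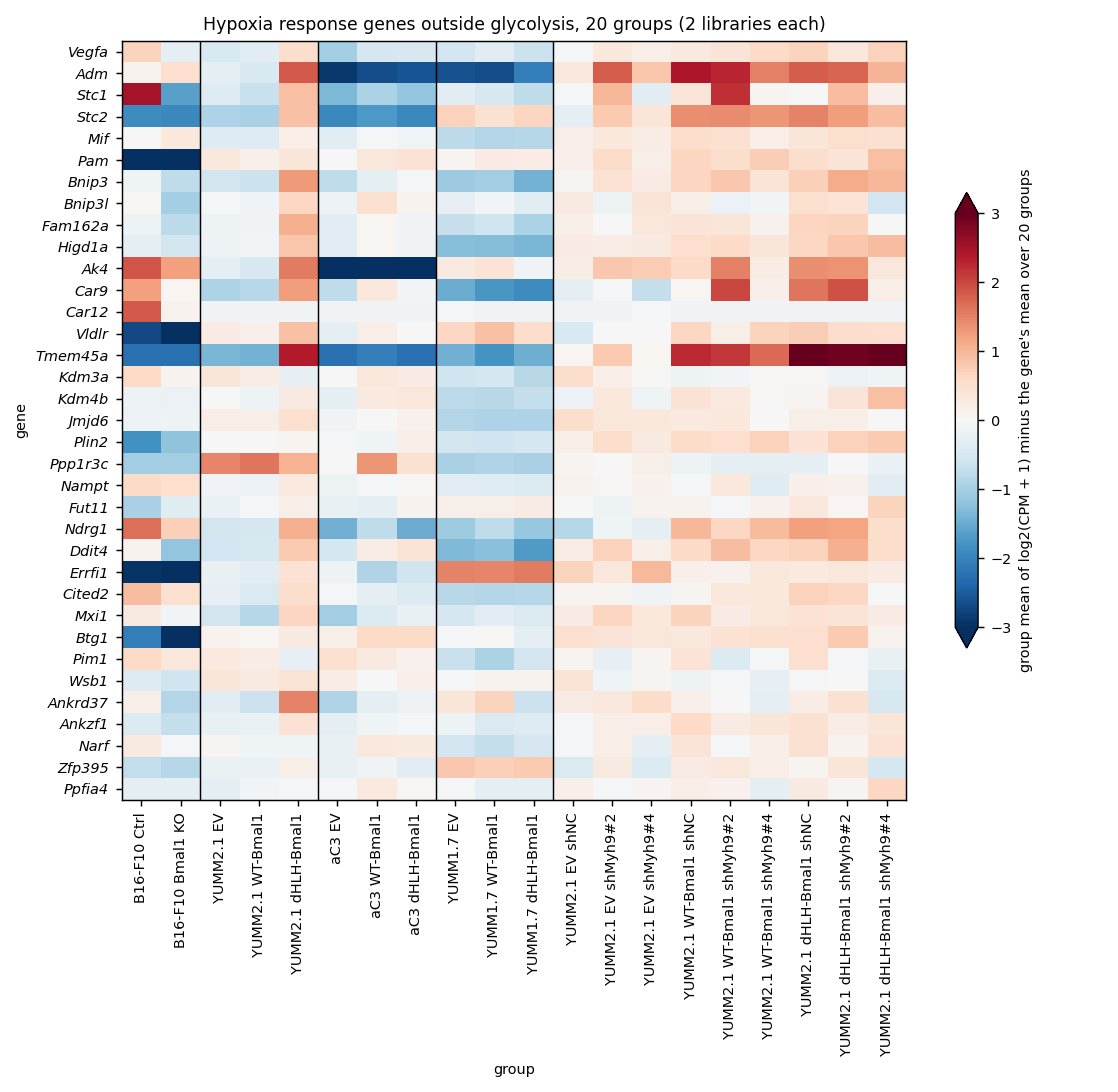
Colours give, for each of the 35 members (rows), the group mean of log2(CPM + 1) minus the mean of that gene over the 20 groups (columns, 2 libraries each). YUMM2.1 dHLH-Bmal1 cells and the WT-Bmal1 and dHLH-Bmal1 hairpin cells are high for Tmem45a, Adm and Ndrg1, and Stc1 is highest in B16-F10 Ctrl at 25.7 CPM.

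The first comparison asked how the members differ between B16-F10 cells labelled Bmal1 KO and Ctrl. Stc1 was 27.3 and 24.1 CPM in Ctrl and 0.37 and 0.668 CPM in KO. Both KO libraries were far below both Ctrl libraries, with a log2 fold change of −5.64 ± 0.363 (edgeR adjusted p = 0.025). Stc1 was the only call among 31 members tested, where 0.22% of all 14556 genes were called lower and 0.22% higher. The lower side nonetheless held most members. Only 7 of the 31 log2 fold changes were above 0, and their median was −0.41 against −0.01 for all genes tested.

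Among the other secreted factors, Vegfa, the main factor for new blood vessels, was 55 and 50.6 CPM in Ctrl and 27.5 and 24.9 CPM in KO. The groups did not overlap, but the difference of −1.01 ± 0.177 was not called (edgeR adjusted p = 0.13). Ddit4, an inhibitor of mTOR, was 90.5 and 117 CPM in Ctrl and 40.7 and 42.5 CPM in KO. Ndrg1, a stress-responsive gene, was 92.4 and 98 CPM in Ctrl and 57.8 and 41.1 CPM in KO. Neither of these was called, although the groups did not overlap.

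The carbonic anhydrases, which hydrate CO2 at the membrane, had their lower values in KO and were not called. Car12 was 3.07 and 2.66 CPM in Ctrl and 0.247 and 0.0954 CPM in KO, and Car9 was 9.59 and 7.61 CPM in Ctrl and 5.06 and 2 CPM in KO. Car12 was near 0 in all the YUMM and aC3 groups, so B16-F10 Ctrl is the single group with more than 1 CPM of it. Bnip3 was 176 and 184 CPM in Ctrl and 107 and 127 CPM in KO.

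The KO libraries differed from each other more than other pairs did, with the highest chi-square per gene of any pair (96.5, where the lowest was 2.68). Kdm3a, a histone demethylase, was 61.2 and 59.4 CPM in Ctrl and 58.1 and 30.8 CPM in KO, so only the second KO library was low. Bnip3l was 169 and 163 CPM in Ctrl and 113 and 54.1 CPM in KO. Fut11, a fucosyltransferase, was 10.1 and 11.3 CPM in Ctrl and 11.8 and 24.4 CPM in KO. Without KO replicate 1, 22 members were called (5 higher and 17 lower), where 21.5% of all genes were higher and 21.9% lower. Without KO replicate 2, 15 were called (0 higher and 15 lower), where 7.23% of all genes were higher and 7.31% lower. The remaining KO library is then assumed to vary as the Ctrl pair does. Stc1 was called lower under every alternative run. The list of 10 HIF pathway genes had 0 calls among 9 tested and 1 gene at an unadjusted p under 0.05. The list of 10 ATF4 stress targets had 2 lower calls, Trib3 and Atf5, 8 of 10 at an unadjusted p under 0.05, none above 0 and a median of −0.96. Hif1a was 104 and 97.5 CPM in Ctrl and 96 and 79.5 CPM in KO.

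**Figure D2:**
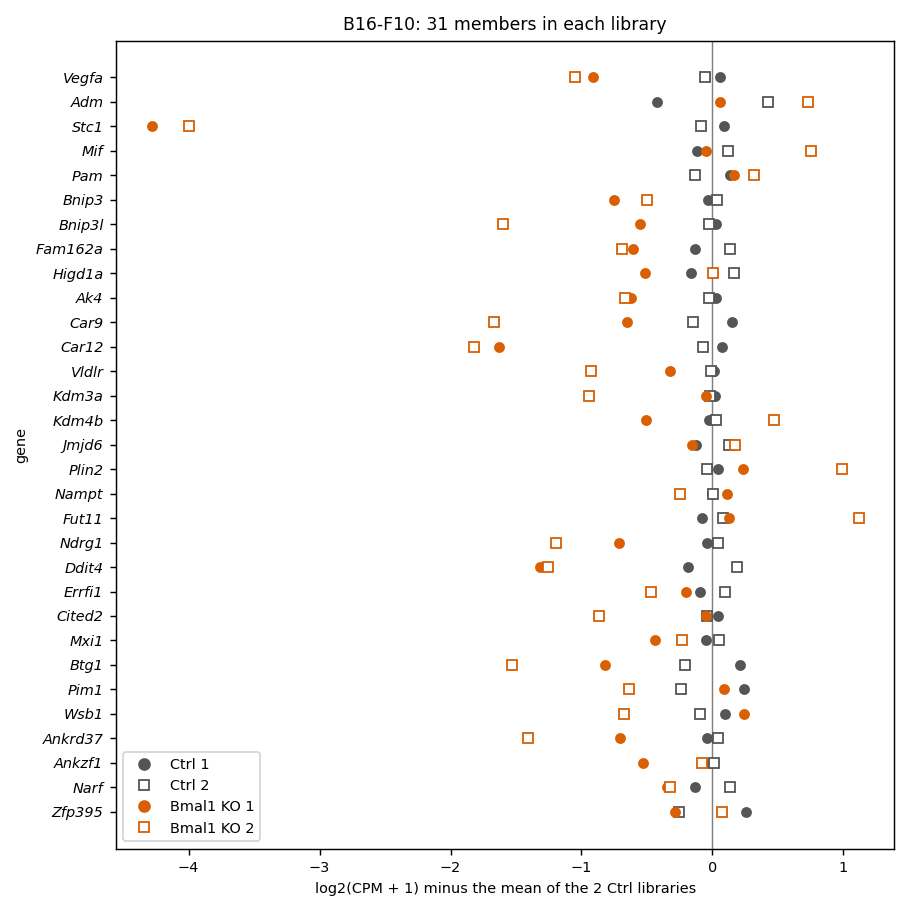
Each point is 1 B16-F10 library, plotted for the members tested as log2(CPM + 1) minus the mean of the 2 Ctrl libraries, with genes as rows and Ctrl in grey and Bmal1 KO in orange. Most KO points lie left of 0, Stc1 farthest, and the KO libraries lie far apart for Kdm3a, Bnip3l and Fut11.

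In the Bmal1-null clone aC3 the question was which members change when Bmal1 or dHLH-Bmal1 is put back. With WT-Bmal1, 14 members rose and 1 fell among 29 tested, where 4.92% of all genes tested rose and 6.28% fell. The median of the members was 0.38 against 0.01 for all 13790 genes. All 4 of the tested genes of mitophagy and mitochondria rose, as did both tested genes of pH and the membrane.

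Bnip3l was 137 and 151 CPM with EV and 227 and 217 CPM with WT-Bmal1, a rise of 0.61 ± 0.0839 (edgeR adjusted p = 0.00051). Bnip3 was 112 and 122 CPM with EV and 164 and 168 CPM with WT-Bmal1 (0.49 ± 0.0963, edgeR adjusted p = 0.0046). In both genes each WT-Bmal1 library was above each EV library. Fam162a rose by 0.38 and Higd1a by 0.36. Ak4, a mitochondrial adenylate kinase, had 0 counts in all 6 aC3 libraries and so could not be tested.

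Ddit4 was 70 and 61.2 CPM with EV and 109 and 115 CPM with WT-Bmal1, a rise of 0.77 ± 0.0928 (edgeR adjusted p = 0.00019). Mxi1, an antagonist of Myc, was 15.3 and 15.7 CPM with EV and 29.8 and 20.3 CPM with WT-Bmal1 (0.69 ± 0.165, edgeR adjusted p = 0.016). Ndrg1 was 11 and 9.38 CPM with EV and 16.2 and 17.9 CPM with WT-Bmal1 (0.73 ± 0.212, edgeR adjusted p = 0.04). The larger rises were in scarce transcripts. Ppp1r3c, which directs a phosphatase to glycogen, went from 1.15 and 0.92 CPM to 4.53 and 3.78 CPM (1.98 ± 0.502, edgeR adjusted p = 0.021). Car9 went from 1.15 and 1.66 CPM to 4.34 and 3.78 CPM (1.52 ± 0.401, edgeR adjusted p = 0.026). Vldlr, a lipoprotein receptor, rose by 0.49, the demethylase gene Kdm4b by 0.59, Narf by 0.55, the antiproliferative gene Btg1 by 0.39, and Pam, an enzyme that amidates peptide hormones, by 0.34.

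Errfi1, a feedback inhibitor of the EGF receptor, was the single member that fell. It was 26.9 and 26.6 CPM with EV and 15.3 and 15.6 CPM with WT-Bmal1 (−0.80 ± 0.134, edgeR adjusted p = 0.0018), and the groups were well apart. Vegfa was 15.8 and 15.2 CPM with EV and 23 and 22.1 CPM with WT-Bmal1, which did not pass (0.53 ± 0.172, edgeR adjusted p = 0.061). The count of 15 calls fell to 5 when all 40 libraries shared 1 fit, where 1.09% of all genes rose and 1.26% fell. With any 1 EV or WT-Bmal1 library left out, fewer members and a smaller share of all genes were called. The median of the members was then 0.374 to 0.388. The glycolytic HIF targets had 2 higher and 1 lower of 18 tested, the HIF pathway genes none of 9 (2 at an unadjusted p under 0.05), and the ATF4 stress targets 1 higher and 5 lower of 10.

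dHLH-Bmal1 gave values in the same range for many of these genes. Against the same EV libraries, 8 members rose and 1 fell, where 4.79% of all genes rose and 6.09% fell, and the median was 0.26 against 0.01. Ddit4 reached 132 and 123 CPM (0.95 ± 0.0926, edgeR adjusted p = 7.5e-05), Bnip3 174 and 206 CPM (0.69 ± 0.0962, edgeR adjusted p = 0.00075) and Mxi1 27.6 and 28.8 CPM (0.85 ± 0.164, edgeR adjusted p = 0.005). All 3 were clear of the EV libraries. Vegfa reached 28.3 and 19 CPM and was called (0.60 ± 0.171, edgeR adjusted p = 0.037), with one dHLH library only a little above EV. Kdm4b rose by 0.64, Narf by 0.54, Pam by 0.44 and Btg1 by 0.37. Errfi1 was 20.3 and 18.6 CPM (−0.47 ± 0.132, edgeR adjusted p = 0.036), again the single fall. The count of 9 calls was 3 in 1 fit of all 40 libraries, where 0.632% of all genes rose and 0.331% fell. Without EV replicate 1 or EV replicate 2, fewer members and a smaller share of all genes were called. The median of the members was then 0.251 and 0.302.

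Set directly against dHLH-Bmal1, WT-Bmal1 separated 1 member. Bnip3l was 168 and 172 CPM with dHLH-Bmal1 and 227 and 217 CPM with WT-Bmal1 (0.38 ± 0.0836, edgeR adjusted p = 0.048), where 0.442% of all genes were higher and 0.435% lower. It was no longer called when WT-Bmal1 replicate 1, WT-Bmal1 replicate 2 or dHLH-Bmal1 replicate 1 was left out (edgeR adjusted p = 0.45, 0.26 and 0.066), nor in 1 fit of all 40 libraries (edgeR adjusted p = 1). In all, 7 of 29 members had an unadjusted p under 0.05, and the median difference was 0.002.

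By the deposited labels, WT-Bmal1 and EV were not told apart in YUMM2.1 cells, which keep their own Bmal1. None of 33 members was called by edgeR or by DESeq2, none had an unadjusted p under 0.05, and 0% of all 14323 genes were called in either direction. Vegfa was 24 and 22.5 CPM with EV and 24.6 and 26.9 CPM with WT-Bmal1 (0.15, edgeR adjusted p = 1). The pairs of libraries themselves crossed over. Tmem45a, a membrane protein gene, was 0.167 and 1.84 CPM with EV and 0.0851 and 1.88 CPM with WT-Bmal1. Stc2, the other stanniocalcin, was 0.501 and 1.62 CPM with EV and 0.426 and 1.59 CPM with WT-Bmal1. Kdm3a was 66.8 and 39.7 CPM with EV and 51.7 and 41.3 CPM with WT-Bmal1. For Tmem45a and Stc2 each EV library lay beside the WT-Bmal1 library of the same number, and for Kdm3a both first libraries were above both second ones.

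With the labels of EV 2 and WT-Bmal1 1 exchanged, still no member was called, but 8 had an unadjusted p under 0.05 and the median moved from −0.05 to 0.07. Tmem45a was then higher with WT-Bmal1 by 3.76 ± 0.681 (edgeR adjusted p = 0.058) and Stc2 by 1.76 ± 0.465 (edgeR adjusted p = 0.19). Without both libraries, 0 members were called and 2 had an unadjusted p under 0.05.

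**Figure D3:**
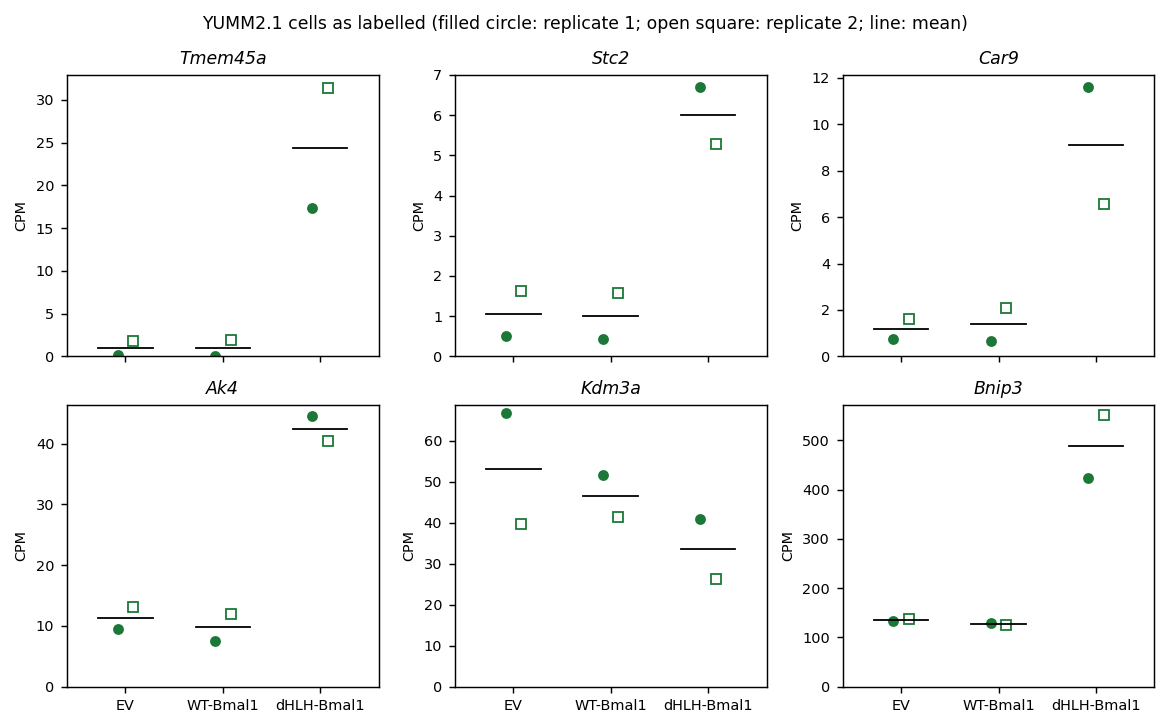
Each panel gives the CPM of 1 gene in the 6 YUMM2.1 libraries without a hairpin, by their deposited labels, with replicate 1 filled and replicate 2 open. For Tmem45a and Stc2 the EV and WT-Bmal1 libraries pair up by number across the groups, and the dHLH-Bmal1 libraries of Bnip3, at 424 and 550 CPM, stand above all others.

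With dHLH-Bmal1, YUMM2.1 cells had the highest median change of the members among the 14 comparisons made within a line. Of 33 tested, 15 rose and 0 fell, where 6.51% of all genes rose and 6.72% fell. In all, 29 of the 33 log2 fold changes were above 0, and the median was 0.71 against −0.01 for all genes. The calls were 3 of 6 secreted factors, 4 of 5 mitochondrial genes, 3 of 3 tested genes of pH and the membrane, 4 of 8 of signalling and feedback and 1 of the others, and none of the demethylases or of the 4 metabolic genes.

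Bnip3 was 134 and 138 CPM with EV and 424 and 550 CPM with dHLH-Bmal1, a rise of 1.87 ± 0.157 (edgeR adjusted p = 0.0015). Fam162a was 164 and 151 CPM with EV and 383 and 354 CPM with dHLH-Bmal1 (1.25 ± 0.119, edgeR adjusted p = 0.0022). Ak4 was 9.43 and 13.1 CPM with EV and 44.5 and 40.3 CPM with dHLH-Bmal1 (1.94 ± 0.267, edgeR adjusted p = 0.0065). The dHLH-Bmal1 libraries of these 3 genes lay far outside the EV range, and Higd1a rose by 1.03.

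Adm, a peptide that widens vessels, was 4.42 and 5.95 CPM with EV and 18.6 and 35.9 CPM with dHLH-Bmal1 (2.42 ± 0.362, edgeR adjusted p = 0.0085). Vegfa was 24 and 22.5 CPM with EV and 55 and 40.8 CPM with dHLH-Bmal1 (1.06 ± 0.183, edgeR adjusted p = 0.014). Stc1 was 3 and 2.27 CPM with EV and 7.73 and 7.88 CPM with dHLH-Bmal1 (1.57 ± 0.314, edgeR adjusted p = 0.021). All 3 secreted factors were higher in both dHLH-Bmal1 libraries.

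Some large log2 fold changes were in genes below 4 CPM in EV. Tmem45a went from 0.167 and 1.84 CPM to 17.3 and 31.4 CPM (4.71 ± 1, edgeR adjusted p = 0.026). Car9 went from 0.751 and 1.62 CPM to 11.6 and 6.59 CPM (2.98 ± 0.614, edgeR adjusted p = 0.023). Ankrd37, an ankyrin-repeat gene, went from 3.84 and 1.51 CPM to 14.5 and 8.7 CPM (2.11 ± 0.505, edgeR adjusted p = 0.037). The EV libraries differ from each other in all 3, which widens the errors. Among the signalling genes, Ndrg1 rose by 1.71 from 20 and 19.3 CPM to 69.8 and 56.8 CPM, Ddit4 rose by 1.40 and Mxi1 by 1.24. Cited2, which competes with the HIF alpha subunit for coactivators, rose by 0.81, and Vldlr rose by 0.68.

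With the labels of EV 2 and WT-Bmal1 1 exchanged, 23 members were called, 22 higher and 1 lower, and they held all 15. The share of all genes also grew, to 15.2% higher and 13.5% lower. The added calls were Stc2 (3.68), Mif, Errfi1, Nampt, Ankzf1, Bnip3l and Jmjd6 as higher and Kdm3a (−0.80) as lower. Without both libraries 14 were called, 13 higher and 1 lower, with 12 shared, where 5.98% of all genes were higher and 5.89% lower. With the replicate number as a block, 22 were called, 21 higher and 1 lower (Kdm3a), and they held all 15, where 14.1% of all genes were higher and 13% lower. Same-numbered libraries of these 3 groups deviated together, with correlations of 0.265 to 0.582. These correlations rest on the deposited labels and were not taken with the labels exchanged. When any 1 EV or dHLH-Bmal1 library was left out, fewer members and a smaller share of all genes were called. The median of the members was then 0.641 to 0.843.

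Other gene lists moved in the same libraries. The HIF pathway list had 1 gene higher and 1 lower of 9 tested. The higher one was Egln3, itself known as a target of hypoxia-inducible factors, at 3.25 and 9.95 CPM with EV and 32.3 and 32.5 CPM with dHLH-Bmal1. The lower one was Arnt2, a partner of the alpha subunit, at 26.3 and 21.1 CPM with EV and 11.3 and 8.47 CPM with dHLH-Bmal1. The glycolytic HIF targets had 8 higher and 1 lower of 19, and ATF4 stress targets, genes of the amino acid and unfolded protein response, had 9 higher of 10. Sox10, a melanocyte lineage factor, fell from 504 and 485 CPM to 66 and 72.1 CPM, and Col1a1, a fibroblast marker, rose from 6.09 and 16.5 CPM to 249 and 229 CPM. Of the melanocyte list, 2 of 7 were tested and 1 fell, and of the fibroblast list 2 of 3 were tested and 1 rose. The summed melanocyte markers were 499 to 519 CPM with EV and 81.1 to 93 CPM with dHLH-Bmal1. The summed fibroblast markers were 7.34 to 20 CPM with EV and 233 to 256 CPM with dHLH-Bmal1, with Dcn at or near 0. Their part in the result was not tested.

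In YUMM1.7 cells 1 member was called over both constructs. With WT-Bmal1, edgeR called none of 29, where 0.0434% of all genes rose and 0.0941% fell, and DESeq2 called 0. Of the 29, 4 had an unadjusted p under 0.05. The median was −0.004. With dHLH-Bmal1, 1 member fell, where 0.42% of all genes fell and 0.21% rose. In all, 7 of 29 had an unadjusted p under 0.05, 9 of the 29 log2 fold changes were above 0, and the median was −0.06 against 0 for all genes. The lowest was that of Ankrd37, at 5.06 and 4.21 CPM with EV and 2.77 and 1.08 CPM with dHLH-Bmal1, which was not called (−1.29 ± 0.389, edgeR adjusted p = 0.21). The member that fell was Bnip3, at 95 and 91.2 CPM with EV and 73.9 and 72.8 CPM with dHLH-Bmal1 (−0.35 ± 0.0699, edgeR adjusted p = 0.033). Both dHLH-Bmal1 libraries were below both EV libraries, but the call was lost when any 1 library was left out and in 1 fit of all 40 libraries (edgeR adjusted p = 1). Vegfa was 20.2 and 22.9 CPM with EV and 28.1 and 23.1 CPM with WT-Bmal1 (0.25, edgeR adjusted p = 0.54). With dHLH-Bmal1 it was 21.3 and 20 CPM (−0.065 ± 0.136, edgeR adjusted p = 0.91).

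**Figure D4:**
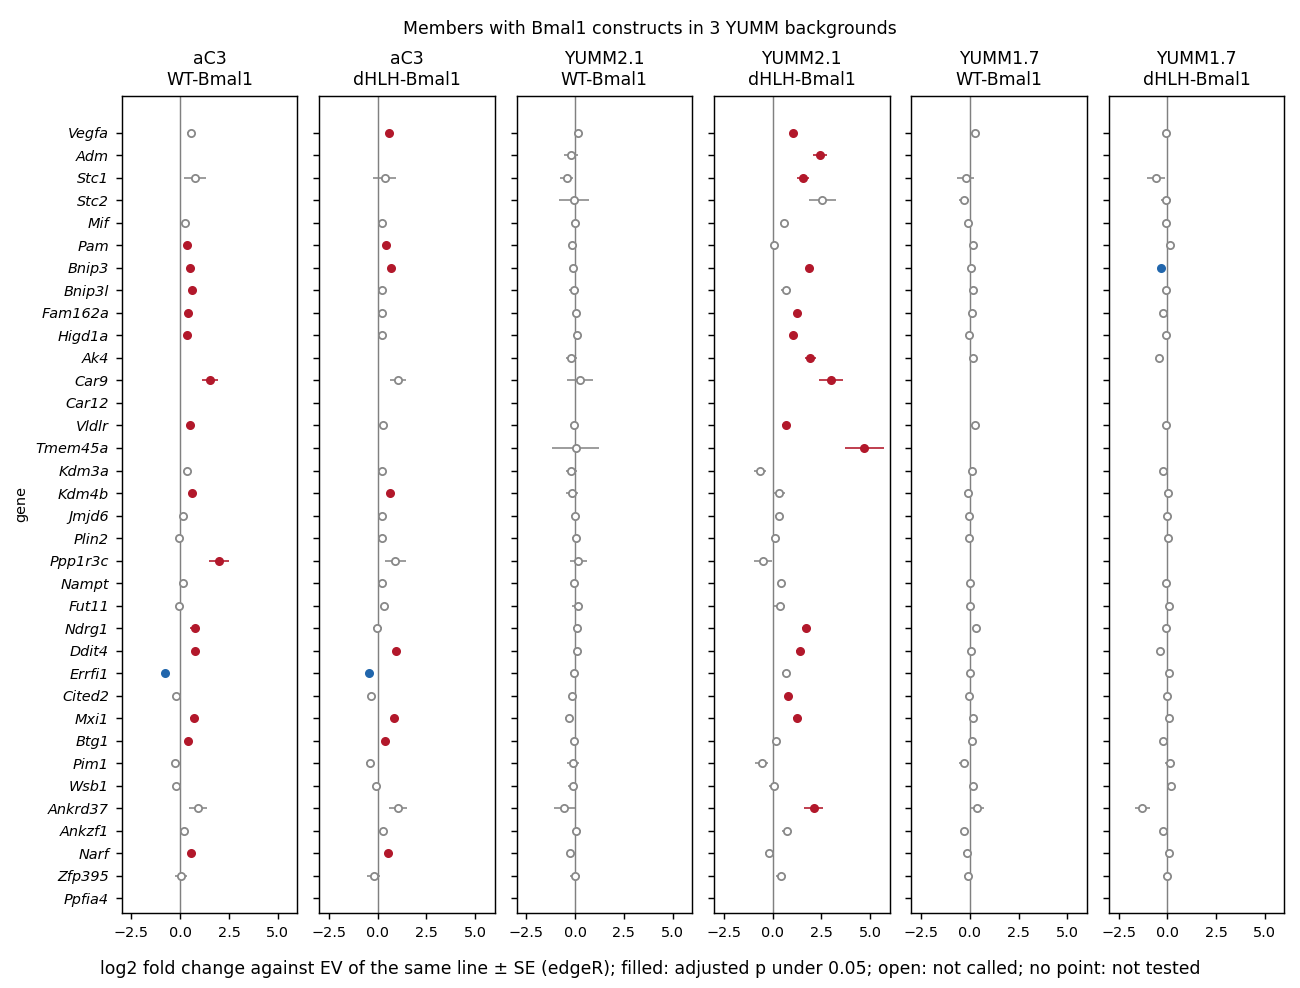
Points are log2 fold changes against EV ± SE (edgeR) for each member (rows), with a panel for each construct in aC3, YUMM2.1 and YUMM1.7. Filled points are calls, red for higher and blue for lower, and open grey points were not called. The points spread to the right for dHLH-Bmal1 in YUMM2.1, up to 4.71 for Tmem45a. In YUMM1.7 they lie between −0.30 and 0.38 with WT-Bmal1 and between −1.29 (Ankrd37) and 0.16 with dHLH-Bmal1.

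The difference between the lines was then tested itself, as the difference of 2 log2 fold changes in 1 fit of the 18 libraries of the 3 YUMM-derived lines, a test added after the data were seen. The log2 fold change with dHLH-Bmal1 was higher in YUMM2.1 than in YUMM1.7 for 17 of 33 members and lower for none, where 6.56% of all genes differed in that direction and 5.86% in the other. The largest differences with small errors were those of Bnip3 (2.203 ± 0.165, edgeR adjusted p = 2.7e-06), Fam162a (1.49 ± 0.12, edgeR adjusted p = 4.8e-06) and Ddit4 (1.78 ± 0.2, edgeR adjusted p = 5.5e-05). Car9 is among the 17, but its YUMM1.7 libraries were below 0.5 CPM and it did not pass the filter there, so its difference rests on few reads and is given no weight.

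Between YUMM2.1 and its Bmal1-null clone aC3, the log2 fold change with dHLH-Bmal1 was higher in YUMM2.1 for 6 members and lower for 1, where the background was 6.61% and 8.92%. The 6 were Ndrg1 (1.71 ± 0.278), Errfi1 (1.16 ± 0.194), Bnip3 (1.16 ± 0.162), Cited2 (1.13 ± 0.208), Fam162a (1.01 ± 0.118) and Higd1a (0.82 ± 0.171), all with an edgeR adjusted p of 0.0041 or below, and the 1 was Narf (−0.76 ± 0.238, edgeR adjusted p = 0.042). Errfi1 was called lower with dHLH-Bmal1 in aC3 and was not called in YUMM2.1, so its difference holds that fall. Ddit4, Mxi1 and Vegfa, which rose with dHLH-Bmal1 in both, were not called different. The WT-Bmal1 effect differed for 0 members between YUMM2.1 and aC3, where 0.0455% of all genes were called higher and 0.162% lower. At an unadjusted p under 0.05 there were 14 members, with no share of all genes taken. With the YUMM2.1 labels exchanged, 8 members differed, 1 higher and 7 lower in YUMM2.1, and the share of all genes was not taken there. Between aC3 and YUMM1.7 the WT-Bmal1 effect differed for 0 members, where 0.351% of all genes were called higher and 0.156% lower. At an unadjusted p under 0.05 there were 9 members, again with no share taken. DESeq2 was not run on these differences.

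The hairpin experiment used YUMM2.1 cells throughout. Myh9 was 697 and 665 CPM in EV cells with shNC, 231 and 246 CPM with shMyh9#2 and 487 and 475 CPM with shMyh9#4, so shMyh9#2 lowered its target further. In EV cells shMyh9#2 raised 5 of 33 members and lowered 0, where 4.2% of all genes rose and 2.46% fell, and the median was 0.25 against 0.01. Adm was 7.22 and 9.52 CPM with shNC and 24.9 and 26.1 CPM with shMyh9#2 (1.60 ± 0.259, edgeR adjusted p = 0.00084). Ndrg1 was 15.5 and 16.1 CPM with shNC and 26.2 and 27.4 CPM with shMyh9#2 (0.76 ± 0.132, edgeR adjusted p = 0.0017). Both genes were higher in each shMyh9#2 library.

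Stc2 rose by 1.37 ± 0.38, from 2.69 and 1.57 CPM to 5.86 and 5.19 CPM (edgeR adjusted p = 0.038). Vldlr rose by 0.47 and Bnip3 by 0.36. Vegfa was 44.7 and 36.6 CPM with shMyh9#2 and was not called (0.35 ± 0.188, edgeR adjusted p = 0.29). Leaving out any 1 EV shNC or EV shMyh9#2 library left fewer members and a smaller share of all genes called. The median of the members was then 0.168 to 0.292. The ATF4 stress targets had 5 higher of 10. The HIF pathway list had 1 gene higher and 0 lower of 9 tested, and the glycolytic HIF targets 0 higher and 1 lower of 20. Egln3 rose from 11 and 6.5 CPM to 24.8 and 29.4 CPM. In the same libraries Sox10 fell from 327 and 334 CPM to 194 and 179 CPM and Col1a1 rose from 1.83 and 2.13 CPM to 18.1 and 24.1 CPM. These were the single calls among 3 tested melanocyte and 2 tested fibroblast markers. Of the others, Mitf and Tyr had log2 fold changes of 0.63 and 1.29 and Pdgfra one of −0.21, none of them called. The summed melanocyte markers were 343 and 349 CPM with shNC and 219 and 202 CPM with shMyh9#2, and the summed fibroblast markers 7.58 and 7.28 CPM and 22.6 and 28.9 CPM. Of the endothelial markers Cdh5 rose, from 3.55 and 2.13 CPM to 9.06 and 11.1 CPM, and their sum was 10 and 7.96 CPM with shNC and 18.6 and 16.6 CPM with shMyh9#2. The part of these markers in the result was not tested.

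shMyh9#4 in EV cells gave 1 call, where 1.45% of all genes rose and 0.256% fell. It was Ndrg1, at 23.7 and 24 CPM (0.57 ± 0.132, edgeR adjusted p = 0.029), and it was lost when any 1 library was left out and in 1 fit of all 40 libraries (edgeR adjusted p = 0.15). Both hairpins thus had Ndrg1 above the shared shNC libraries. The median of the members was 0.03 against 0 for all genes. Here too Cdh5 and Col1a1 were called higher and Sox10 lower, and their part in the result was not tested.

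In WT-Bmal1 cells shMyh9#2 gave 3 higher and 1 lower, where 2.35% of all genes rose and 2.41% fell, with a median of −0.04. Car9 was 3.95 and 2.63 CPM with shNC and 17.8 and 13 CPM with shMyh9#2 (2.23 ± 0.414, edgeR adjusted p = 0.0036). Stc1 was 5.59 and 4.66 CPM with shNC and 18.7 and 22.5 CPM with shMyh9#2 (2.00 ± 0.386, edgeR adjusted p = 0.005). Ak4 was 24.5 and 18.4 CPM with shNC and 38.5 and 44.9 CPM with shMyh9#2 (0.95 ± 0.221, edgeR adjusted p = 0.018). All 3 were higher in both shMyh9#2 libraries. Vldlr fell by 0.44 ± 0.118 on the log2 scale (edgeR adjusted p = 0.04). The HIF pathway list had 1 gene higher and 1 lower of 9 tested, with a median of 0.018. The glycolytic HIF targets had 2 higher and 0 lower of 20. Hif1a, the alpha subunit gene, was 113 and 102 CPM with shNC and 162 and 158 CPM with shMyh9#2. With any 1 WT-Bmal1 shNC or WT-Bmal1 shMyh9#2 library left out, fewer members and a smaller share of all genes were called. The median of the members was then −0.035 to 0.008. In the same libraries the summed melanocyte markers went from 122 and 119 CPM to 56.5 and 59.2 CPM, with Sox10 called lower of 3 tested. The summed fibroblast markers went from 52.6 and 53.1 CPM to 114 and 123 CPM, with Col1a1 called higher of 2 tested. Their part in the result was not tested.

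In dHLH-Bmal1 cells shMyh9#2 gave no call among 33 members by edgeR, where 0.296% of all genes rose and 0.263% fell. DESeq2 gave 1 call, and 3 members had an unadjusted p under 0.05. Myh9 itself fell there from 907 and 877 CPM to 292 and 266 CPM. The effect of shMyh9#2 differed between WT-Bmal1 and EV cells for 4 members, all lower in WT-Bmal1 cells, where the background was 3.43% lower and 1.75% higher. They were Adm (−1.76 ± 0.344), Ndrg1 (−1.14 ± 0.176), Vldlr (−0.92 ± 0.17) and Mxi1 (−0.83 ± 0.199), with edgeR adjusted p of 0.0061, 8e-04, 0.0041 and 0.023. It differed between dHLH-Bmal1 and EV cells for Adm (−1.70 ± 0.353), Ndrg1 (−0.84 ± 0.176) and Vldlr (−0.71 ± 0.17), with edgeR adjusted p of 0.012, 0.013 and 0.028 and a background of 2.2% lower and 1.1% higher. These differences share the EV libraries, where Adm, Ndrg1 and Vldlr were low with shNC.

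shMyh9#4 in the other cells is given by level. Adm was 18.1 and 22.7 CPM in WT-Bmal1 shMyh9#4 cells, against 31.9 and 47.4 CPM with shNC. Ak4 was 16.3 and 16.4 CPM there, and Car9 2.33 and 5.15 CPM, near or below the shNC values rather than at the shMyh9#2 values. In dHLH-Bmal1 shMyh9#4 cells Ndrg1 was 41 and 44.8 CPM, against 70.8 and 70.9 CPM with shNC. Bnip3l was 119 and 95 CPM there, against 226 and 216 CPM with shNC. Other members went the other way. The same cells had the highest mean of all 20 groups for Vegfa, Pam, Higd1a, Tmem45a, Kdm4b, Plin2 and Fut11. The share of all genes with their highest mean there was not taken. The libraries of these cells held 3643332 and 6001340 counts, the first being the lowest total of the series, and the part of depth was not tested. Kdm4b was 38.5 and 39.5 CPM, against 21.8 and 21.7 CPM with shNC, and Pam was 442 and 454 CPM, against 372 and 324 CPM. For Vegfa (46.7 and 61 CPM, against 50.5 and 54.8 CPM) the groups overlapped.

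**Figure D5:**
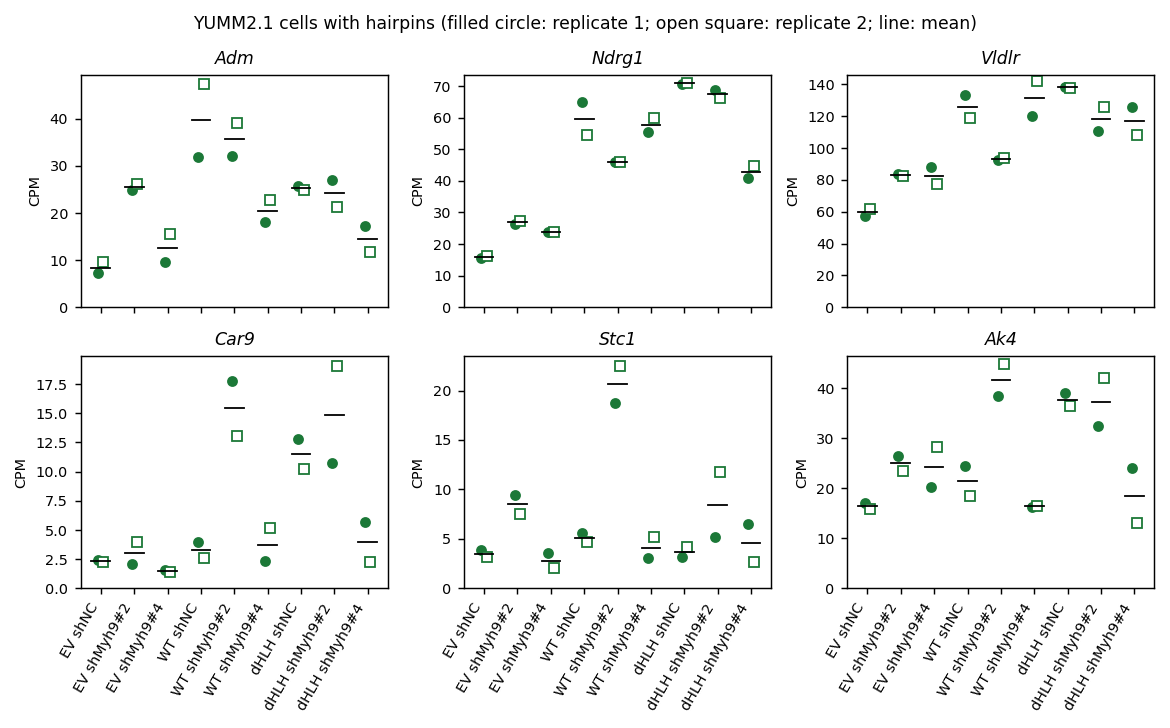
Each panel gives the CPM of 1 member in the 18 YUMM2.1 libraries with a hairpin, grouped by construct and hairpin, 2 points a group. Adm stands at 24.9 and 26.1 CPM in EV shMyh9#2 cells against 7.22 and 9.52 CPM with shNC, while Car9 is high in WT-Bmal1 shMyh9#2 cells.

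The shNC cells also let the constructs be compared without a Myh9 hairpin, each against the EV shNC libraries already used above. With WT-Bmal1, 11 members rose and 3 fell of 33, where 11.7% of all genes rose and 10.6% fell, and the median was 0.37 against 0.02. With dHLH-Bmal1, 13 rose and 2 fell, where 13.9% of all genes rose and 12.5% fell, and the median was 0.38 against 0.02. When any 1 of the compared libraries was left out, fewer members and a smaller share of all genes were called with each construct. The medians were then 0.332 to 0.342 with WT-Bmal1 and 0.321 to 0.403 with dHLH-Bmal1.

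Ndrg1 was 15.5 and 16.1 CPM in EV cells, 65 and 54.4 CPM in WT-Bmal1 cells (1.91 ± 0.129, edgeR adjusted p = 1.2e-08) and 70.8 and 70.9 CPM in dHLH-Bmal1 cells (2.16 ± 0.128, edgeR adjusted p = 9.7e-10). Tmem45a was 4.28 and 3.47 CPM in EV cells, 19.8 and 22.6 CPM in WT-Bmal1 cells (2.44 ± 0.259, edgeR adjusted p = 2.6e-06) and 37.2 and 38.9 CPM in dHLH-Bmal1 cells (3.30 ± 0.255, edgeR adjusted p = 3.1e-08). In both genes each construct's libraries were far above those of EV. Adm was 31.9 and 47.4 CPM in WT-Bmal1 cells (2.23 ± 0.256) and 25.7 and 24.8 CPM in dHLH-Bmal1 cells (1.59 ± 0.258). Stc2, at 2.69 and 1.57 CPM in EV cells, was 9.82 and 8.36 CPM with WT-Bmal1 and 8.05 and 11.7 CPM with dHLH-Bmal1. Vldlr rose by 1.07 with WT-Bmal1 and 1.21 with dHLH-Bmal1, Ankzf1 by 0.67 and 0.54, Bnip3 by 0.56 and 0.66 and Pam by 0.48 and 0.38.

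Some members were called with 1 construct and not the other, which was not tested as a difference. With dHLH-Bmal1 these were Car9 (2.45 and 2.24 CPM in EV cells, 12.8 and 10.2 CPM), Ak4 (17.1 and 15.8 CPM, 39 and 36.5 CPM), Vegfa (30.5 and 32.9 CPM, 50.5 and 54.8 CPM, 0.73 ± 0.185, edgeR adjusted p = 0.0071), Fam162a, Cited2 and, lower, Jmjd6. With WT-Bmal1, Vegfa was 42.4 and 38.4 CPM (0.34 ± 0.188, edgeR adjusted p = 0.21). With WT-Bmal1 they were Mif, Kdm4b, Mxi1 and, lower, Errfi1 and Wsb1, a subunit of a ubiquitin ligase. Kdm3a fell with both, from 58.1 and 57.5 CPM in EV cells to 39 and 32.3 CPM with WT-Bmal1 and 42.7 and 38 CPM with dHLH-Bmal1.

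The ATF4 stress targets rose for 8 of 10 genes with each construct, and the glycolytic HIF targets had 4 higher and 4 lower of 20 with WT-Bmal1 and 2 higher and 4 lower with dHLH-Bmal1. Sox10 was 327 and 334 CPM in EV shNC cells, 99 and 100 CPM in WT-Bmal1 shNC cells and 22.7 and 26.1 CPM in dHLH-Bmal1 shNC cells. Col1a1 was 1.83 and 2.13 CPM, 48.9 and 49.2 CPM and 198 and 181 CPM in the same order. They were the single calls of 3 tested melanocyte and 2 tested fibroblast markers with each construct. Mitf and Tyr were above 0 in log2 fold change and Pdgfra below it (−0.53 with WT-Bmal1 and −1.05 with dHLH-Bmal1), none of them called. The summed endothelial markers were 10 and 7.96 CPM in EV shNC cells, 21.5 and 21 CPM with WT-Bmal1 and 14.5 and 16.6 CPM with dHLH-Bmal1, with Cdh5 called higher in both. The part of these markers in the members' values was not tested.

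The lines were also compared by their EV or Ctrl cells, all against the YUMM2.1 EV libraries. In aC3, 0 members were higher and 5 lower of 33, where 0.441% of all 15177 genes were higher and 1.3% lower, and the median was −0.17 against −0.01. Ak4 had 9.43 and 13.1 CPM in YUMM2.1 EV cells and 0 counts in both aC3 EV libraries, at least 41.5-fold lower at a floor of 3 counts per library. Adm also had 0 counts in both and was at least 19.1-fold lower. Log2 fold changes were −1.61 for Stc1, −0.93 for Ndrg1 and −0.53 for Vldlr. With the YUMM2.1 labels exchanged 10 members were lower, but the share of all genes also grew, to 4.47% higher and 5.29% lower. The median of the members was −0.164 with the labels exchanged, −0.177 without both libraries and −0.215 to −0.177 with any 1 library left out. Egln3 was 3.25 and 9.95 CPM in YUMM2.1 EV cells and 0.532 and 0.92 CPM in aC3 EV cells.

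In YUMM1.7, 5 members were higher and 15 lower, where 17.8% of all genes were higher and 19.3% lower, with a median of −0.41 against 0. Ppp1r3c was at least 17.5-fold lower and Adm at least 19-fold lower. Higd1a was 287 and 319 CPM in YUMM2.1 EV cells and 138 and 142 CPM in YUMM1.7 EV cells (−1.11 ± 0.123, edgeR adjusted p = 7.2e-05). All 3 demethylases and hydroxylases, Kdm3a, Kdm4b and Jmjd6, were lower. Errfi1 went the other way, from 24.7 and 26.5 CPM to 83 and 87.8 CPM (1.74 ± 0.125, edgeR adjusted p = 3.9e-06), as did Stc2 (2.31), Zfp395 (1.14), Ak4 (0.60) and Vldlr (0.37). The other members called lower were Pim1 (−1.10), Ddit4, Narf, Cited2, Fam162a, Plin2, Bnip3, Ndrg1 and Mif, with log2 fold changes from −0.76 to −0.41. Without YUMM1.7 EV replicate 1 or replicate 2, fewer members and a smaller share of all genes were called. The median of the members was then −0.411 and −0.399.

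In B16-F10 Ctrl, 11 members were higher and 10 lower, where 25% of all genes were higher and 29.2% lower. Pam was 285 and 314 CPM in YUMM2.1 EV cells and 22.7 and 18.7 CPM in B16-F10 Ctrl cells (−3.89 ± 0.118, edgeR adjusted p = 4.9e-09). Log2 fold changes were −3.07 for Vldlr, −3.10 for Errfi1 and −2.26 for Btg1, and Ppp1r3c was at least 33.2-fold and Stc2 at least 7.34-fold lower. Stc1 was higher by 3.24 ± 0.221, Car9 by 2.86, Ndrg1 by 2.25, Ak4 by 2.24, Cited2 by 1.17 and Vegfa by 1.15. Car12 was at least 9.97-fold higher, but only B16-F10 Ctrl had 10 counts of it in both libraries. It passed the filter only through the group where it is high, so its call among the 11 is given no weight. B16-F10 and YUMM2.1 cells came from different laboratories, so line and source cannot be told apart between them. YUMM1.7 and YUMM2.1 came from the same laboratory and carry different mutations. aC3 is a single clone of YUMM2.1, so the clone and the loss of Bmal1 cannot be told apart.

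Over the 14 comparisons made within a line, Bnip3 was called most often, 6 times higher and once lower. Ndrg1 was called 6 times, always higher, and Vldlr also 6 times, 5 higher and 1 lower. Adm, Car9, Pam and Mxi1 were each called 4 times, always higher. Errfi1 was called 3 times and Kdm3a 2 times, always lower. Plin2, the coat protein of lipid droplets, Nampt, Fut11, Pim1, a kinase, and Zfp395 were tested in all 14 and called in none by edgeR, and Car12 was tested in 1 and not called. Many of these comparisons share EV or shNC libraries, so the counts are a description and not independent repeats.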

How the data were processed

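QuantSeq FWD 3′ libraries were made by the authors from 100 ng of RNA and sequenced as single reads. Reads were aligned to mm10 with bowtie2, RSEM (1.2.3 in the submitters' processing notes) estimated counts per Ensembl gene, and the authors deposited these counts rounded to whole numbers. All 40 columns were used. Symbols and positions came from GENCODE vM21 (GRCm38), with a symbol for 99.63% of identifiers.

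Each comparison was fitted in R 4.3.3 with edgeR 4.0.16 (TMM, filterByExpr, quasi-likelihood F test) over all genes of an experiment with calls where the p adjusted by Benjamini-Hochberg was under 0.05. Groups of 1 experiment shared an estimate of the spread. Alternatives were DESeq2 1.42.0 and its size factors, no filter, a replicate block, each library left out, and 1 fit of all libraries. The labels of 2 YUMM2.1 libraries were exchanged as a further alternative, and the tests of differences between effects were added after the data were seen. Fold bounds used a floor of 3 counts per library. Scripts were tested on simulated data.

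The members and lists were chosen with earlier results of these data known. In each comparison up to 6 called members in each direction are described by the size of the change, and Vegfa in each experiment. Other called members are named more briefly or given by counts, and members named without a call were chosen after their values were seen. Part of the genotype of the YUMM lines is not reported here.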

Additional observations from a re-analysis of the deposited data

Results flagged for a closer look

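The differences below are those between effects of the same contrast in 2 kinds of cells that passed an edgeR adjusted p under 0.05 in a test added after the data were seen. Each value is the log2 fold change in the first kind of cells minus that in the second. Shares of all genes were taken for these differences with the deposited labels only.

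For dHLH-Bmal1 against EV, YUMM2.1 minus YUMM1.7, the mitochondrial genes differed by 2.203 (Bnip3), 1.486 (Fam162a), 1.121 (Higd1a) and 2.339 (Ak4). The secreted factors differed by 1.12 (Vegfa), 2.145 (Stc1), 2.604 (Stc2) and 0.662 (Mif), and the genes of the membrane by 5.089 (Car9) and 0.762 (Vldlr). Car9 did not pass the filter in YUMM1.7, where it was below 0.5 CPM, and entered the joint fit through the other groups, so its value rests on few reads. The signalling genes differed by 1.761 (Ndrg1), 1.778 (Ddit4), 0.62 (Errfi1), 0.819 (Cited2) and 1.173 (Mxi1), and 2 others by 3.377 (Ankrd37) and 0.964 (Ankzf1). With the labels of YUMM2.1 EV 2 and WT-Bmal1 1 exchanged, 21 members differed, and they held these 17.

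For the same contrast, YUMM2.1 minus aC3, the differences were 1.157 (Bnip3), 1.005 (Fam162a), 0.817 (Higd1a), 1.71 (Ndrg1), 1.162 (Errfi1), 1.133 (Cited2) and −0.757 (Narf). With the labels exchanged, 10 members differed, 6 of them among these 7.

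For shMyh9#2 against shNC, WT-Bmal1 minus EV cells, the differences were −1.762 (Adm), −0.915 (Vldlr), −1.139 (Ndrg1) and −0.826 (Mxi1). For dHLH-Bmal1 minus EV cells they were −1.701 (Adm), −0.71 (Vldlr) and −0.842 (Ndrg1). Both sets share the EV libraries. Groups of 2 libraries are too small for a test of a single library that stands apart.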

How the results depend on the processing

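No member's call changed direction under any alternative run. DESeq2's size factors kept all 158 calls, and DESeq2's own test kept 115 and lost 10. The fits without a filter kept 153 and lost 5, and 1 fit of all 40 libraries kept 96 and lost 31. Leaving out each library in turn kept 326 and lost 182, where the lone library of a group is assumed to vary like the others, and the cause of the losses was not tested beyond the smaller number of libraries.

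Counts of called members moved by over 1.5 times as follows. Brackets give the shares of all genes called higher and lower in the same setting. In B16-F10 KO against Ctrl, 1 (0.22% and 0.22%) became 6 by DESeq2 (1.2% and 1.28%) and 7 without a filter (0.988% and 1.07%). It was 4 with the replicate block (0.769% and 0.941%) and 14 in 1 fit of all libraries (7.15% and 4.6%). In aC3, the fit of all libraries gave 5 for WT-Bmal1 against EV (1.09% and 1.26%) and 3 for dHLH-Bmal1 against EV (0.632% and 0.331%). WT-Bmal1 against dHLH-Bmal1 gave 2 without a filter (0.982% and 0.818%), 2 with the block (1.03% and 1%) and 0 in the fit of all libraries (0.0542% and 0.0542%). YUMM2.1 dHLH-Bmal1 gave 23 with the labels exchanged (15.2% and 13.5%). YUMM1.7 WT-Bmal1 gave 1 without a filter (0.369% and 0.767%). YUMM1.7 dHLH-Bmal1 gave 3 without a filter (0.494% and 1.03%), 0 with the block (0.159% and 0.318%) and 0 in the fit of all libraries (0.012% and 0.012%). In EV cells shMyh9#2 gave 9 without a filter (3.18% and 3.05%) and 3 in the fit of all libraries (2.94% and 2.21%). There shMyh9#4 gave 2 by DESeq2 (1.98% and 0.352%), 2 with the block (1.37% and 0.256%) and 0 in the fit of all libraries (0.517% and 0.193%). In dHLH-Bmal1 cells shMyh9#2 gave 1 by DESeq2 (0.708% and 0.562%) and 1 without a filter (0.614% and 0.472%). aC3 EV against YUMM2.1 EV gave 9 without a filter (1.38% and 2.5%), 3 with the block (0.29% and 0.949%) and 10 with the labels exchanged (4.47% and 5.29%). Its count also moved without both libraries. For members whose effect differed, the fits without a filter gave 2 in place of 0 in both comparisons of the WT-Bmal1 effect and 5 in place of 3 for shMyh9#2 in dHLH-Bmal1 minus EV cells. The exchanged labels gave 8 (YUMM2.1 minus aC3) and 2 (aC3 minus YUMM1.7) in place of 0 for the WT-Bmal1 effect. Shares of all genes were not taken for these differences under the alternatives. The cause was not tested.

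With 1 library left out, the lowest and highest counts were 1 and 22 in B16-F10 KO, 4 and 6 (WT-Bmal1), 2 and 8 (dHLH-Bmal1) and 0 and 2 (WT-Bmal1 against dHLH-Bmal1) in aC3, 8 and 12 in YUMM2.1 dHLH-Bmal1, 0 and 0 in YUMM2.1 WT-Bmal1 and in both YUMM1.7 comparisons, 2 and 3 (EV shMyh9#2), 0 and 0 (EV shMyh9#4), 0 and 3 (WT-Bmal1 shMyh9#2), 0 and 0 (dHLH-Bmal1 shMyh9#2), 9 and 13 (shNC WT-Bmal1), 10 and 13 (shNC dHLH-Bmal1), and 9 and 21 (YUMM1.7), 20 and 26 (B16-F10) and 1 and 8 (aC3) against YUMM2.1 EV. The medians of the log2 fold changes ran from −0.679 to −0.441 in B16-F10 KO, 0.374 to 0.388, 0.251 to 0.302 and −0.002 to 0.03 in aC3, −0.119 to 0.007 and 0.641 to 0.843 in YUMM2.1, −0.02 to 0.039 and −0.091 to −0.01 in YUMM1.7, 0.168 to 0.292 (EV shMyh9#2), 0.024 to 0.134 (EV shMyh9#4), −0.035 to 0.008 (WT-Bmal1 shMyh9#2), −0.062 to 0.036 (dHLH-Bmal1 shMyh9#2), 0.332 to 0.342 and 0.321 to 0.403 (shNC), and −0.411 to −0.324, −0.033 to 0.093 and −0.215 to −0.177 (YUMM1.7, B16-F10 and aC3 against YUMM2.1 EV).

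Under the other alternatives the medians that moved past the spread between libraries were as follows. B16-F10 KO gave −0.4 (size factors), −0.426 (no filter), −0.466 (replicate block) and −0.383 (all libraries). aC3 WT-Bmal1 gave 0.479 without a filter. YUMM2.1 WT-Bmal1 gave 0.066 with labels exchanged and 0.004 without both libraries, and YUMM2.1 dHLH-Bmal1 gave 0.76 and 0.796. YUMM1.7 WT-Bmal1 gave −0.012 (no filter) and −0.02 (all libraries), and EV shMyh9#2 gave 0.232 and 0.243. dHLH-Bmal1 shMyh9#2 gave −0.002 (size factors), −0.014 (no filter), −0.012 (replicate block) and −0.008 (all libraries), and shNC dHLH-Bmal1 gave 0.363, 0.361 and 0.366 (size factors, no filter, all libraries). Against YUMM2.1 EV, YUMM1.7 gave −0.324 without both libraries, and B16-F10 gave 0.073 (no filter), 0.07 (labels exchanged) and −0.023 (without both).

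The labels number the replicates without saying whether equal numbers share anything. Deviations of same-numbered libraries correlated at 0.113 in B16-F10, 0.0921 to 0.177 in aC3, 0.265 to 0.582 in YUMM2.1 by the deposited labels, −0.13 to 0.129 in YUMM1.7 and −0.313 to 0.418 in the hairpin cells. The replicate block kept 154 calls and lost 4, and a call lost under it is not a weaker effect. Each group holds 2 libraries, and members near 1 CPM rest on few reads.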
